A study of Mus musculus with 20 samples.

Results

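Sham HFD mice, the obese group of the study, were set against the 3 lean groups in liver RNA: Sham Chow, RYGB Chow and RYGB HFD. Of 12289 genes tested, 574 (4.67%) had all 5 Sham HFD mice beyond all 15 lean mice, 290 of them above (2.36%) and 284 below (2.31%), and these genes were chosen for description by that absence of overlap. All mice were male C57BL/6 mice made obese by 12 weeks of high-fat diet (HFD) before surgery, then given Roux-en-Y gastric bypass (RYGB), which routes food past most of the stomach and the upper small intestine, or a sham operation, and kept on chow or HFD for 8 weeks. Each group held 5 mice, picked at random from a larger cohort, with 1 poly(A) RNA library per liver, and ages were not given in the sources used here. The words obese and lean follow the study's account of body weight, which was not analysed here. Sham HFD differed from Sham Chow by diet, from RYGB HFD by surgery and from RYGB Chow by both, so body weight, diet and surgery cannot be told apart in the contrast with all lean mice, and every mouse had been obese on HFD before its operation. Values are CPM, the read counts of a gene put on a common library size after scaling by TMM factors, and fold changes are log2 differences between Sham HFD and the equal-weight mean of the 3 lean groups from 1 model of all 20 mice.

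Hepatocytes, the main cells of the liver, take up fatty acids, store them as triglyceride in lipid droplets, secrete plasma proteins and clear steroids, bile acids and drugs through cytochrome P450 enzymes. In rodents many of these enzymes, transporters and secreted proteins are made at different levels in males and females, because the pituitary releases growth hormone in pulses in males and more steadily in females, and the STAT5B pathway in hepatocytes reads that pattern. Stellate cells, which lie between hepatocytes and the sinusoids, lay down collagen when the liver is injured. In RNA from whole tissue, fewer cells of a type and less RNA per cell cannot be told apart.

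The contrast with the lean mean was balanced in direction. It called 1653 genes higher (13.5%) and 1688 lower (13.7%) in Sham HFD at an adjusted p under 0.05 (edgeR's quasi-likelihood test), and the median log2 fold change of all tested genes was -0.0040. The 574 genes without overlap were all among those called, and nothing is read from that, since the same values chose them. Against single lean groups, which share the same 5 Sham HFD mice, 1337 genes were higher (10.9%) and 1319 lower (10.7%) than in Sham Chow, 1318 (10.7%) and 1401 (11.4%) than in RYGB Chow, and 971 (7.9%) and 1050 (8.54%) than in RYGB HFD. Among the lean groups themselves 712 genes (5.79%) differed. Library sizes ran from 14604854 to 22537498 counts, and mitochondrial transcripts held 4.02% to 7.34% of the counts.

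The genes above the lean mice had a median log2 fold change of 0.81 and those below one of -0.50. A gap between the nearest Sham HFD mouse and the nearest lean mouse of more than 1 on the log2(CPM + 0.5) scale was present in 13 genes above and 5 below. For 119 of the genes above (41.0%) and 120 of those below (42.3%) the nearest lean mouse belonged to RYGB HFD, and for 70 (24.1%) and 62 (21.8%) to RYGB Chow. The median lean level was 12.9 CPM for the genes above, 59.4 CPM for those below and 18 CPM for all tested genes. The lean groups differed from each other in 16 of the genes above (5.52%) and 19 of those below (6.69%). At the edge of the rule, Sdcbp (0.15) and Sypl (0.27) lay just inside among the higher genes and Rnf170 (0.40) and Ids (0.34) just outside. On the lower side Nop9 (-0.33) and Tedc2 (-0.82) lay just inside, and Cct2 (-0.26) and Mup4, which had 0 counts in every Sham HFD mouse and in some lean mice, just outside.

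**Figure D1:**
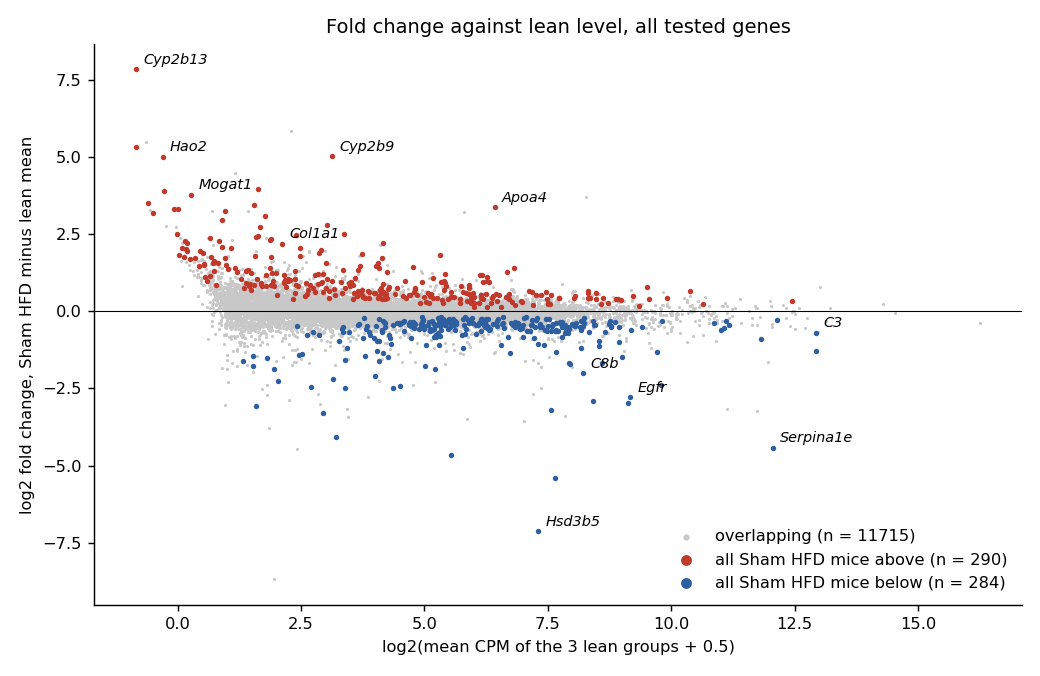
Fold change of each of the 12289 tested genes (vertical axis, log2, Sham HFD minus lean mean) against its mean level in the 3 lean groups (horizontal axis, log2 of CPM + 0.5). Red points are the 290 genes with all Sham HFD mice above all lean mice, blue points the 284 with all below, and grey points the 11715 that overlapped; Cyp2b13 (7.85) and Hsd3b5 (-7.14) mark the ends of the coloured points.

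Genes that the male and female liver express at different levels held the widest gaps. Of 12 tested members of a list of 24 female-biased liver genes, 10 were higher in Sham HFD and 0 lower, and 6 lay above every lean mouse, with a median log2 fold change of 2.30. The filter on low values (a CPM of 2 in 3 mice) favoured members that were high in Sham HFD: Cyp2b13, Hao2 and Sult2a7 reached it through the Sham HFD mice alone, and of the 9 that also reached it in the lean mice 7 were higher and 0 lower, with a median of 1.51. The other 12 listed genes stayed under the filter, and when all genes were tested without it 1 of these was higher and 1 lower. Of 28 male-biased genes, 0 were higher and 21 lower, and 8 lay below every lean mouse, with a median of -1.32. Beside these counts, 13.5% of all tested genes were higher, 13.7% lower, 2.36% above every lean mouse and 2.31% below. Sex-biased genes outside these lists were not counted here. All mice were male. Values for the leading members follow, the female-biased genes first.

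The windows upstream of 3 female-biased genes are shown because, of the 9 matched windows of such genes, these held the hexamer described below. Of these 3 windows, 2 belong to neighbouring P450 genes that carry nearly the same sequence. Each is the 250 bases before the RefSeq transcription start (GRCm38.p6), written 5′ to 3′ on the gene's own strand, with the nuclear receptor hexamer AGGTCA or its reverse complement TGACCT in capitals: Cyp2b9 at chr7:26173159-26173408, plus strand, Cyp2b13 at chr7:26061245-26061494, plus strand and Slc22a27 at chr19:7966028-7966277, minus strand.
Cyp2b9: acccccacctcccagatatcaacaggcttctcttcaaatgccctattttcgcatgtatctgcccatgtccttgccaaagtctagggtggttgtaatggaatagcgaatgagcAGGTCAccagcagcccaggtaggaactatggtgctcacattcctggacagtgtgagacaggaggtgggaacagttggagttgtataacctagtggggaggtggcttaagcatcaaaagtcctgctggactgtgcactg
Cyp2b13: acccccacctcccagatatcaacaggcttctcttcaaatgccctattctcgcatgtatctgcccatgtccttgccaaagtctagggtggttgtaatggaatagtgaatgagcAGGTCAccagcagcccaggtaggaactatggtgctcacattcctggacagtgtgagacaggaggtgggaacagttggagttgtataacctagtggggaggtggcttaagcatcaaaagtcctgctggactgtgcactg
Slc22a27: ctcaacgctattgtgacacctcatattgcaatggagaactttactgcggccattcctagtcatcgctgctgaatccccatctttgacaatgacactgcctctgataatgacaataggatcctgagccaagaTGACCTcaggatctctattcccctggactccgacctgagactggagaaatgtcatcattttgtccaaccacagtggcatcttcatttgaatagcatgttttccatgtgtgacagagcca
The Cyp2b9 and Cyp2b13 windows were identical at 248 of 250 positions (99.2%), with the hexamer starting 138 bases before both starts, and that of Slc22a27 lay 119 bases before its start. The hexamer was searched in these genes after their values were seen. It was present on either strand in 3 of the 9 female-biased and 4 of the 19 male-biased genes matched by symbol, and in 14.0% of all 32851 windows of this length. TTCNNNGAA, the core letters of a STAT5 site, was present in 1 of those 9 and 2 of those 19 windows, and in 7.02% of all windows.

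Cyp2b9 and Cyp2b13 encode steroid and drug hydroxylases of the cytochrome P450 2B family and lie 77213 bases apart on chromosome 7. Cyp2b9 (ENSMUSG00000040660, chromosome 7 from 26173411 to 26210661) measured 80.6, 219, 274, 328 and 395 CPM in Sham HFD replicates 1 to 5. It measured 8.02, 1.97, 0.786, 19.4 and 0.667 CPM in Sham Chow, 9.75, 6.25, 11, 1.76 and 26.3 CPM in RYGB Chow and 8.43, 8.69, 4.32, 7.93 and 8.57 CPM in RYGB HFD. The lowest Sham HFD mouse, replicate 1, stood above the highest lean mouse, a RYGB Chow mouse, and the log2 fold change was 5.04 ± 0.47 (SE, edgeR adjusted p = 2.70e-07). Cyp2b13 (ENSMUSG00000040583, chromosome 7 from 26061497 to 26096197) measured 2.49, 7.21, 10.1, 7.61 and 10.5 CPM in Sham HFD and at most 0.428 CPM in any lean mouse, and no count fell on it in RYGB HFD; its fitted log2 fold change of 7.85 depends on how counts of 0 are treated and was 8.70 without RYGB Chow replicate 1. With the RYGB HFD group taken at 3 counts over its 5 libraries, Sham HFD was at least 243-fold higher than RYGB HFD. How multi-mapping reads were counted is not given in the sources used here, so the division of reads between these near-identical genes is uncertain.

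Hao2, a peroxisomal hydroxyacid oxidase (ENSMUSG00000027870, chromosome 3 from 98874521 to 98893239), measured 6.2, 4.67, 9.71, 10.4 and 18.8 CPM in Sham HFD and from 0 to 1.13 CPM (median 0.208) in the lean mice. Its log2 fold change was 5.02 ± 0.44 (SE, edgeR adjusted p = 1.22e-07). Slc22a27, an organic anion transporter (ENSMUSG00000067656, chromosome 19 from 7864388 to 7966027), measured 17.2, 26.2, 25.1, 22.3 and 38.5 CPM in Sham HFD and from 0.74 to 4.79 CPM (median 1.81) in lean mice, with a log2 fold change of 3.46 ± 0.27 (SE, edgeR adjusted p = 4.37e-08). For both genes the 3 lean groups lay together at the low end and their ranges overlapped each other. Slc22a29, a transporter of the same family 194137 bases away, rose by 3.25, Ntrk2, a neurotrophin receptor, by 3.09, and Fmo1, a flavin monooxygenase, by 0.52, all with the 5 Sham HFD mice above the lean mice. Cyp2a4, a steroid hydroxylase, rose by 4.48 but overlapped the lean mice (5.52 without RYGB Chow and 3.87 without RYGB HFD). Cyp2b10, the member of the family used as a readout of the CAR receptor, did not pass against the lean mean (log2 fold change 1.35 ± 0.64 SE, edgeR adjusted p = 0.122), and its lean groups differed from each other (adjusted p = 3.25e-05): it measured 1.85 ± 0.606 CPM (mean ± SD over n = 5 mice) in Sham HFD, 10.4 ± 5.21 in Sham Chow, 2.1 ± 1.64 in RYGB Chow and at most 0.0591 in RYGB HFD. Without RYGB HFD in the lean mean its log2 fold change was -1.32 (adjusted p = 0.0405), and without Sham Chow 3.26 (adjusted p = 0.00328).

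**Figure D2:**
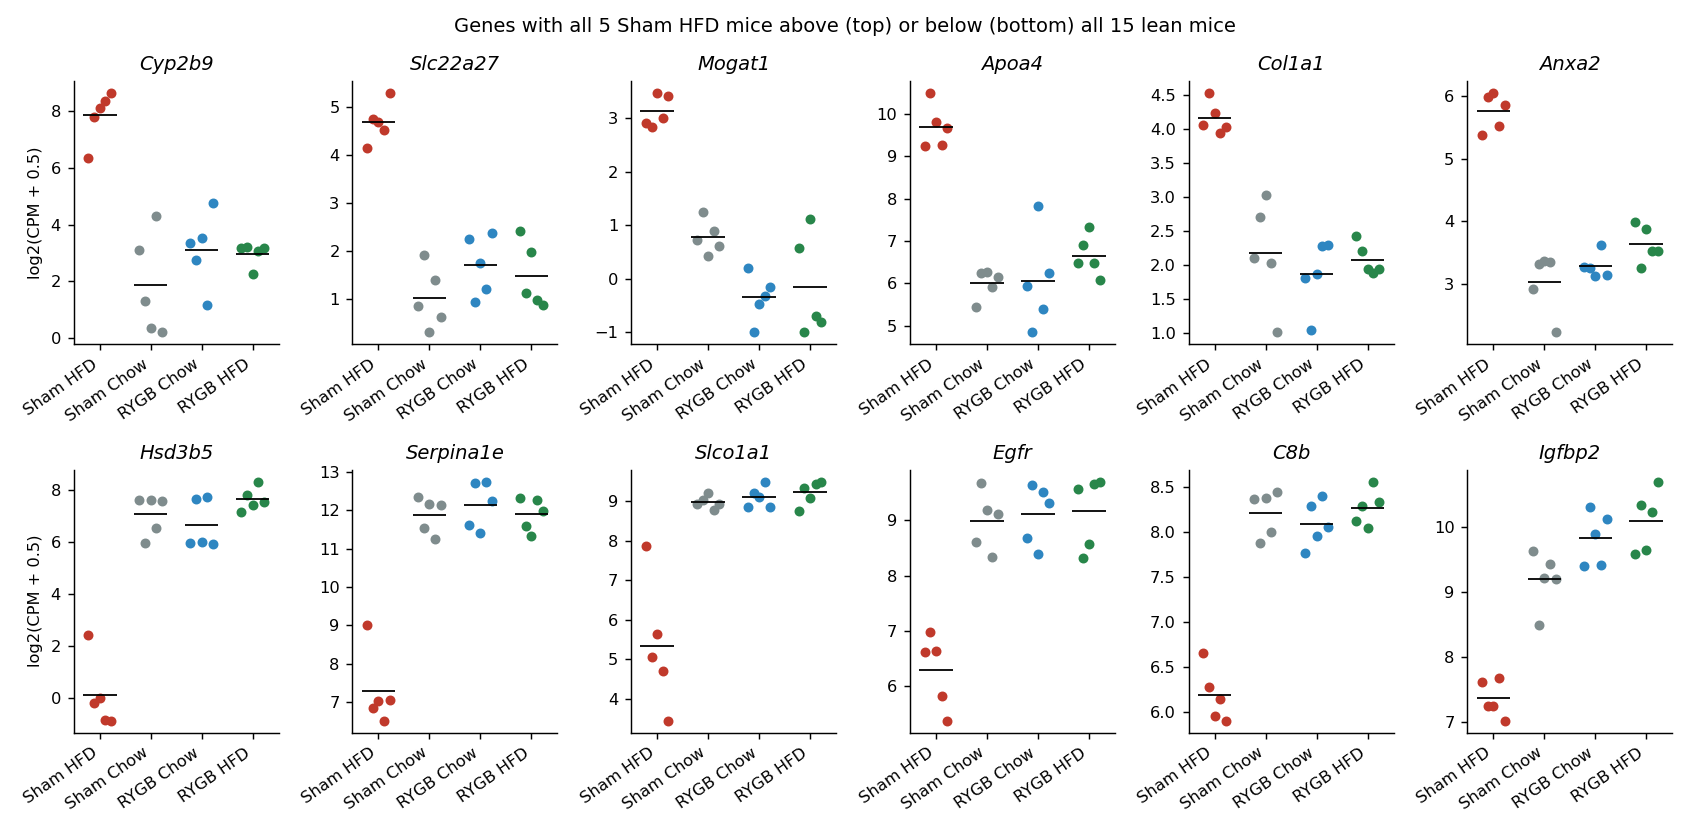
Level of 12 genes in each mouse (log2 of CPM + 0.5; points are mice, horizontal lines are means of the log2 values, and each panel has its own vertical scale). In the upper 6 panels the 5 Sham HFD mice lie above the 15 lean mice, and in the other 6 under them; Sham HFD replicate 1, the first red point, was the highest of its group for Hsd3b5 (4.87 CPM), Serpina1e (517 CPM) and Slco1a1 (234 CPM).

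Hsd3b5, a male-specific hydroxysteroid dehydrogenase (ENSMUSG00000038092, chromosome 3 from 98618634 to 98630252), showed the lowest fold change among the genes without overlap. It measured 4.87, 0.37, 0.507, 0.0599 and 0.0438 CPM in Sham HFD, against 194, 61.5, 195, 92.0 and 189 CPM in Sham Chow, 61.6, 199.9, 63.3, 213 and 59.4 CPM in RYGB Chow and 141, 223, 169.6, 318 and 183 CPM in RYGB HFD. The log2 fold change was -7.14 ± 0.71 (SE, edgeR adjusted p = 6.21e-07), and Sham HFD replicate 1 stood apart from the other Sham HFD mice, which were all at or under 0.507 CPM; without it the log2 fold change was -9.17. Serpina1e, an alpha-1-antitrypsin gene (ENSMUSG00000072849, chromosome 12 from 103946931 to 103958975), measured 517, 116, 129, 91.2 and 133 CPM in Sham HFD and from 2443 to 6869 CPM (median 4480.1) in lean mice, a log2 fold change of -4.42 ± 0.43 (SE, edgeR adjusted p = 4.83e-07). Replicate 1 was again the highest Sham HFD mouse, and it stayed well below every lean mouse; without it the log2 fold change was -5.17. Slco1a1, an organic anion and bile acid transporter (ENSMUSG00000041698, chromosome 6 from 141907282 to 141946962), measured 234, 33.1, 49.4, 25.5 and 10.4 CPM in Sham HFD and from 435 to 724 CPM (median 543) in lean mice, with a log2 fold change of -2.99 ± 0.49 (SE, edgeR adjusted p = 1.49e-04), and of -4.23 without replicate 1.

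The major urinary proteins (Mup), pheromone carriers made in the male liver, belong to a cluster of near-identical genes, so that counts of single members are uncertain. Mup19 measured 5.91, 4.62, 2.79, 5.45 and 1.71 CPM in Sham HFD and from 10.3 to 986 CPM (median 43.2) in lean mice, whose values spread widely within each group, and its log2 fold change was -5.39 ± 1.22 (SE, edgeR adjusted p = 0.00269), a call that limma-voom did not make (adjusted p = 0.0929) and a value of -4.70 without RYGB HFD replicate 2. Mup7 (-3.23), Mup11 (-3.21), Mup12 (-3.17) and Mup1 (-2.30) fell too, and of these Mup11 was without overlap. Mup21 (-0.71), Mup3 (-0.52) and Mup17 (0.05) moved less, all with overlap. Without Sham HFD replicate 1 the values were -4.23 for Mup7, -3.82 for Mup11 and -4.0 for Mup12. Cyp7b1, an oxysterol hydroxylase, measured 114, 71.8, 52.1, 80.3 and 60.6 CPM in Sham HFD and from 149 to 378 CPM (median 219) in lean mice (log2 fold change -1.68 ± 0.24 SE, edgeR adjusted p = 4.18e-05). The growth hormone receptor and its signal were in part represented. Ghr, the receptor (log2 fold change 0.19 ± 0.08 SE, edgeR adjusted p = 0.0799), and Stat5b, the transcription factor it activates (log2 fold change 0.05 ± 0.09 SE, edgeR adjusted p = 0.707), did not pass. Ghr did pass with library sizes alone (0.29, edgeR adjusted p = 0.00315) and without RYGB HFD in the lean mean (0.23, edgeR adjusted p = 0.0465). Socs2, a STAT5 target that limits growth hormone signalling, measured 8.58, 12.7, 7.98, 7.01 and 9.78 CPM in Sham HFD and from 13.5 to 67.0 CPM (median 22.7) in lean mice (log2 fold change -1.78 ± 0.38 SE, edgeR adjusted p = 0.0017), and Igf1, the growth factor that the liver releases in response, fell by 0.43 with overlap.

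Summed over the 28 male-biased genes, the level was 7306 to 15968 CPM in Sham HFD mice and 16352 to 39773 CPM in lean mice. Summed over all 24 listed female-biased genes, those under the filter included, it was 414 to 889 CPM in Sham HFD and 152 to 267 CPM in lean mice. The sums did not overlap in either list, and Sham HFD replicate 1 was the mouse nearest to the lean mice in both. Without that mouse, 22 male-biased genes were lower and 10 female-biased genes higher. The median log2 fold change of the male-biased list was -1.50 against Sham Chow, -1.28 against RYGB Chow and -0.89 against RYGB HFD, and that of the female-biased list 2.24, 2.13 and 3.15. The female-biased medians cover all 12 tested members, among them the 3 that reached the filter through Sham HFD mice alone. Without these 3 the median against the lean mean was 1.51.

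**Figure D3:**
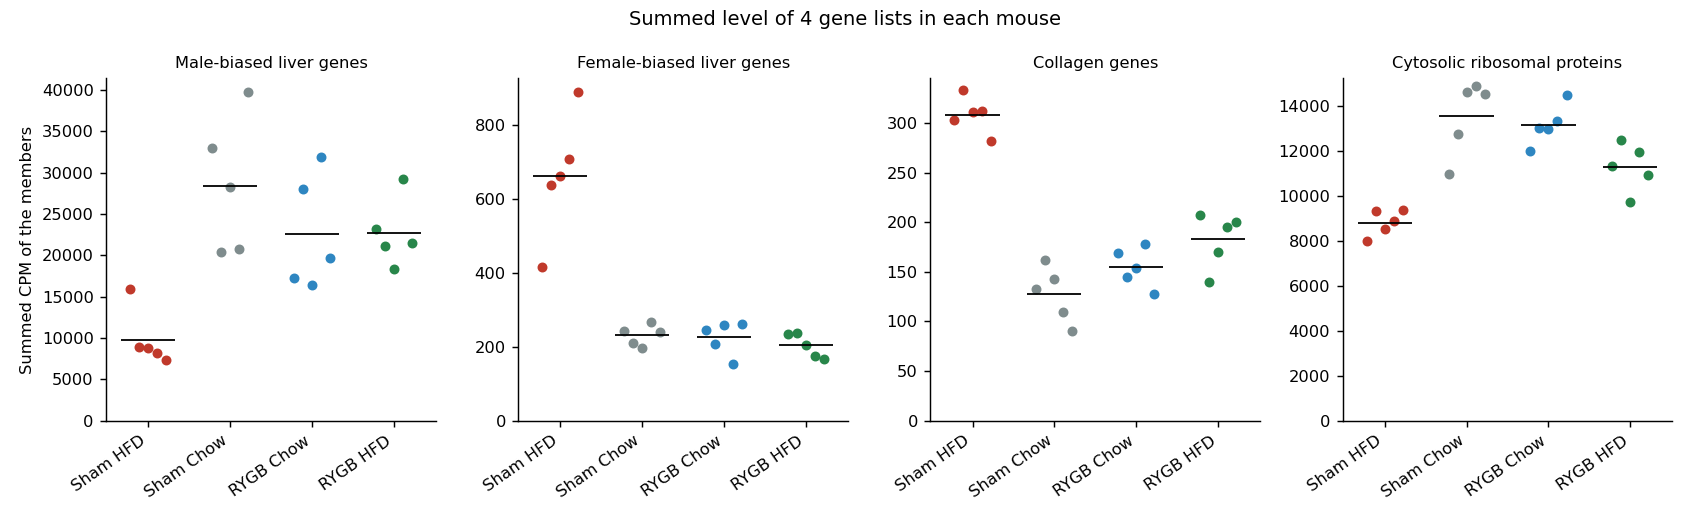
Summed CPM of all listed members of 4 gene lists in each mouse, those under the filter included (points are mice, horizontal lines are group means, vertical axes start at 0 and differ in scale). Sham HFD mice were lowest for male-biased genes (7306 to 15968) and ribosomal protein genes (8018 to 9371) and highest for female-biased genes (414 to 889) and collagens (282 to 333).

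P450 enzymes outside the sex-biased lists moved in both directions, and more often down. Of 37 tested drug-metabolizing P450s and their regulators, 31 were in neither sex-biased list, and of these 4 were higher and 17 lower in Sham HFD, 4 lay above and 3 below all lean mice, and the median log2 fold change was -0.38. The shares over all tested genes were 13.5% higher and 13.7% lower. The 4 higher genes were Cyp2a22, Cyp2c38, Cyp2c39 and Cyp2d40. The largest falls among the 31 were those of Cyp2c69 (-3.79) and Cyp2c40 (-3.01), both with overlap. In the Cyp2c cluster on chromosome 19, whose enzymes act on steroids, fatty acids and drugs, Cyp2c38 and Cyp2c39, 47786 bases apart, rose by 1.19 and 1.79, whereas Cyp2c67, 40312 bases from Cyp2c39, fell by 0.95 and Cyp2c54 by 2.89, each without overlap with the lean mice. Cyp1a2, which oxidizes caffeine and oestrogens, fell by 1.49, and Cyp3a11, the main CYP3A enzyme, by 1.65 with overlap, a value of -1.01 without RYGB Chow and -2.85 without RYGB HFD. Against RYGB HFD alone these 31 genes had 6 higher and 7 lower members and a median of -0.12, against Sham Chow 4 higher and 16 lower and a median of -0.44, and against RYGB Chow 4 higher and 17 lower and a median of -0.56.

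Genes of fatty acid uptake (Cd36, Pparg, Fabp2), monoacylglycerol acylation (Mogat1) and lipid transport (Apoa4) lay above every lean mouse, and the core enzymes of fatty acid synthesis, Fasn and Acaca, were not called. Of 21 genes of fatty acid uptake and binding 5 were higher and 5 lower, of 15 of triglyceride synthesis 3 higher and 1 lower, of 18 lipid droplet proteins and lipases 7 higher and 2 lower, and of 19 of fatty acid synthesis, elongation and desaturation 5 higher and 2 lower. Fatty acid uptake had 3 lower genes without Sham HFD replicate 4, and fatty acid synthesis had 3 higher without Sham HFD replicate 2 or 5. Of all tested genes 13.5% were higher and 13.7% lower. In the triglyceride synthesis list Mogat1, 1 of the 3 higher genes, reached the filter through Sham HFD mice alone. Each list held 1 to 3 genes with all Sham HFD mice above the lean mice, as against 2.36% of all tested genes.

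Pparg, the fatty acid receptor that drives fat storage in adipocytes, and Cd36, a fatty acid transporter and a known PPARG target, were matched to RefSeq windows, which are shown as examples of the hexamer in this group (Cd36 at chr5:17835897-17836146, minus strand; Pparg at chr6:115360894-115361143, plus strand; capitals as above).
Cd36: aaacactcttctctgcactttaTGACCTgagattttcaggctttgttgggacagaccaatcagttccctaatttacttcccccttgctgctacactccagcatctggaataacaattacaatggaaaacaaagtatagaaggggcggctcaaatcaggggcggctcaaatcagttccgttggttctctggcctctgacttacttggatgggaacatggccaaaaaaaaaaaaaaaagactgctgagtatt
Pparg: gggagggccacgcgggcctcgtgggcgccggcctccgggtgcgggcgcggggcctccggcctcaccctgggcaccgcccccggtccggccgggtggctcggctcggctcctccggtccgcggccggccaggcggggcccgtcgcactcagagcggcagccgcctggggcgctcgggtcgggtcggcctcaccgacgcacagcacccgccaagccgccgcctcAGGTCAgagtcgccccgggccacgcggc
The hexamer began 228 bases before the RefSeq start used for Cd36 and 28 bases before that used for Pparg. The Cd36 window lies inside the annotated gene (17781690 to 17888801), and that of Pparg reaches past the annotated gene start (115360951). Other starts of these genes were not searched. Of 54 tested lipid droplet, triglyceride synthesis and fatty acid uptake genes, 44 matched a window, 11 of these held the hexamer, and 1, Fabp1, which encodes a liver fatty acid binding protein, held 2 copies of AGGNCA in direct repeat with 1 base between them on either strand. Such a repeat was present in 0.338% of all windows, and the hexamer in 14.0%. The windows of Cd36 and Pparg held no such repeat, and whether the hexamer acts in them was not tested. Fabp1 itself had a log2 fold change of -0.05 ± 0.14 (SE, edgeR adjusted p = 0.813). The window of Mogat1 held neither motif.

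Mogat1, which makes diacylglycerol from monoacylglycerol (ENSMUSG00000012187, chromosome 1 from 78510991 to 78538173), measured 7.07, 6.66, 10.6, 7.55 and 10.2 CPM in Sham HFD. It measured 1.16, 1.86, 0.833, 1.36 and 1.03 CPM in Sham Chow, 0.654, 0, 0.22, 0.293 and 0.396 CPM in RYGB Chow and 0.979, 0, 1.67, 0.118 and 0.0665 CPM in RYGB HFD. Every Sham HFD mouse was above the highest lean mouse, a Sham Chow mouse, and the log2 fold change was 3.78 ± 0.40 (SE, edgeR adjusted p = 1.20e-06). Cd36 measured 263, 287, 308, 318 and 325 CPM in Sham HFD and from 68.3 to 182 CPM (median 109.5) in lean mice (log2 fold change 1.42 ± 0.17 SE, edgeR adjusted p = 7.48e-06). Pparg measured 22.6, 20.4, 23.6, 19.8 and 24.3 CPM in Sham HFD and from 9.10 to 18.1 CPM (median 14.1) in lean mice (log2 fold change 0.64 ± 0.12 SE, edgeR adjusted p = 4.36e-04). The lean groups lay close together for both genes, with log2 fold changes of 0.62 against Sham Chow, 0.68 against RYGB Chow and 0.61 against RYGB HFD for Pparg and of 1.45 against Sham Chow, 1.27 against RYGB Chow and 1.53 against RYGB HFD for Cd36.

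Fabp2, an intestinal type of fatty acid binding protein, measured 165, 170.1, 154, 163 and 166 CPM in Sham HFD and from 38.3 to 132 CPM (median 68.2) in lean mice (log2 fold change 1.11 ± 0.16 SE, edgeR adjusted p = 5.11e-05). Apoa4, an apolipoprotein of triglyceride-rich particles (ENSMUSG00000032080, chromosome 9 from 46240696 to 46243459), measured 606, 1441, 892, 616 and 813 CPM in Sham HFD and from 28.4 to 225 CPM (median 75.1) in lean mice, a log2 fold change of 3.38 ± 0.30 (SE, edgeR adjusted p = 1.27e-07). The highest lean mouse for Apoa4, RYGB Chow replicate 3, stood apart from the other RYGB Chow mice, which were at or under 75.1 CPM. Fabp5, a fatty acid binding protein of macrophages and skin, went the other way and fell by 2.49 without overlap. Of the other genes of lipoprotein assembly Apom, the carrier of sphingosine-1-phosphate on HDL, fell by 1.09 without overlap. In the whole list 4 of 25 were higher and 5 lower, beside 13.5% and 13.7% of all tested genes.

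The lipid droplet fusion proteins rose with overlap. Cidec measured 63.0, 109, 98.4, 29.2 and 56.1 CPM in Sham HFD and from 4.20 to 64.0 CPM (median 12.6) in lean mice (log2 fold change 2.15 ± 0.39 SE, edgeR adjusted p = 4.28e-04), and the highest lean value, that of Sham Chow replicate 2, exceeded 3 of the Sham HFD mice. Cidea measured 19.9, 28.3, 36.5, 3.35 and 10.4 CPM in Sham HFD and from 0 to 11 CPM (median 1.13) in lean mice (log2 fold change 3.26 ± 0.69 SE, edgeR adjusted p = 0.00161), where Sham HFD replicates 4 and 5 were inside the lean range. Plin2, the main droplet coat protein of hepatocytes, did not pass (log2 fold change 0.13 ± 0.11 SE, edgeR adjusted p = 0.425).

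Fasn, the fatty acid synthase, measured 295, 400.0, 451, 299.6 and 649.6 CPM in Sham HFD and from 209 to 860.3 CPM (median 389.8) in lean mice (log2 fold change -0.05 ± 0.25 SE, edgeR adjusted p = 0.898), and Acaca, which supplies its malonyl-CoA, did not pass either (log2 fold change -0.11 ± 0.14 SE, edgeR adjusted p = 0.596). Scd1, the stearoyl-CoA desaturase, passed narrowly against the lean mean (log2 fold change 0.78 ± 0.29 SE, edgeR adjusted p = 0.0477), but its log2 fold changes were 0.03 against Sham Chow, 0.42 against RYGB Chow and 1.90 against RYGB HFD, and its lean groups differed (adjusted p = 0.0125). The call on Scd1 was lost without any 1 of 15 of the 20 mice, with adjusted p up to 0.135 without Sham HFD replicate 3, and in DESeq2 (adjusted p = 0.0652), and without RYGB HFD the log2 fold change was 0.22 (adjusted p = 0.625). Elovl5, an elongase of polyunsaturated fatty acids, rose by 0.81 and was the 1 gene of the list above every lean mouse, while Mlxipl, the glucose-responsive transcription factor ChREBP, fell by 0.45 without overlap. Srebf1, the transcription factor SREBP1, rose by 0.65 with overlap, a call lost only in the test against a fold of 1.5.

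Collagen genes and other products of stellate cells were higher in Sham HFD. Of 32 tested members of the matrix list 27 were higher and 0 lower, 12 lay above all lean mice, and the median log2 fold change was 0.73, with medians of 0.93 against Sham Chow, 0.72 against RYGB Chow and 0.61 against RYGB HFD. Of the 31 members that also reached the filter in lean mice 26 were higher and 0 lower. The shares over all tested genes were 13.5% higher, 13.7% lower and 2.36% above. All 12 collagens of the list were higher, 7 of them without overlap. Col1a1, the main chain of fibrillar collagen (ENSMUSG00000001506, chromosome 11 from 94936224 to 94953042), measured 16.1, 22.6, 18.2, 14.9 and 15.9 CPM in Sham HFD and from 1.52 to 7.68 CPM (median 3.57) in lean mice, a log2 fold change of 2.19 ± 0.22 (SE, edgeR adjusted p = 5.96e-07). Col3a1 measured 55.4, 64.7, 63.0, 53.5 and 42.5 CPM in Sham HFD and from 7.03 to 23.4 CPM (median 18.6) in lean mice (log2 fold change 1.72 ± 0.16 SE, edgeR adjusted p = 2.07e-07). In both genes the lowest Sham HFD mouse was well above the highest lean mouse.

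The summed level of the 12 collagens was 282 to 333 CPM in Sham HFD, 90.6 to 162 CPM in Sham Chow, 127 to 179 CPM in RYGB Chow and 140 to 208 CPM in RYGB HFD, so that Sham HFD did not overlap any lean group and RYGB HFD held the highest lean mouse. The sum over the whole list did overlap, at 2243 to 2511 CPM in Sham HFD and 1632 to 2936 CPM in lean mice, and fibronectin (Fn1), which hepatocytes also secrete, made up most of it and was highest in RYGB HFD, at 1738 to 2340 CPM against 1374 to 1551 CPM in Sham HFD. Thbs1, thrombospondin 1, measured 2.32, 2.27, 3.17, 2.22 and 2.46 CPM in Sham HFD and from 0 to 1.13 CPM (median 0.538) in lean mice (log2 fold change 2.03 ± 0.33 SE, edgeR adjusted p = 1.47e-04). It reached the filter on low values through the Sham HFD mice alone. Lamb3, a laminin chain of epithelial basement membranes, measured 23.2, 28.9, 32.3, 29.7 and 26.3 CPM in Sham HFD and from 4.20 to 11 CPM (median 6.78) in lean mice (log2 fold change 2.01 ± 0.16 SE, edgeR adjusted p = 4.41e-08). Anxa2, a calcium-dependent membrane protein that binds plasminogen and its activator, measured 41.2, 62.9, 65.9, 45.3 and 57.6 CPM in Sham HFD and from 4.18 to 15.4 CPM (median 9.47) in lean mice (log2 fold change 2.50 ± 0.14 SE, edgeR adjusted p = 5.81e-10), and its adjusted p was the smallest of these genes.

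Other cell types in the tissue were read from marker lists, beside shares of 13.5% higher and 13.7% lower over all tested genes. Of 16 endothelial markers 0 were higher and 0 lower, with a summed level of 448 to 674 CPM in Sham HFD and 229 to 616 CPM in lean mice. Of 14 Kupffer cell markers, the resident macrophages of the liver, 1 was higher and 1 lower, with a sum of 426 to 539 CPM in Sham HFD and 226 to 859 CPM in lean mice. The Kupffer markers depended on the lean group, with 7 higher and 0 lower against Sham Chow. Against RYGB Chow 0 were higher and 1 lower, and against RYGB HFD 1 was higher and 0 lower. Without single mice the count higher than the lean mean ran from 0 to 2. Of 21 genes of lipid-associated macrophages 11 were higher and 2 lower, and 0 lay above all lean mice. The filter on low values was reached through the Sham HFD mice alone by 3 of them, all called higher. Of the 18 that also reached it in lean mice 8 were higher and 2 lower. Over all 21 the count of higher genes was 7 without Sham HFD replicate 5. It was 12 against Sham Chow, 6 against RYGB Chow and 5 against RYGB HFD. Among them Trem2, the receptor by which these cells are known, measured 1.97, 1.25, 1.60, 1.92 and 2.94 CPM in Sham HFD and from 0.121 to 2.54 CPM (median 0.871) in lean mice (log2 fold change 0.96 ± 0.35 SE, edgeR adjusted p = 0.0472), and Gpnmb measured 2.84, 2.87, 2.96, 2.88 and 3.38 CPM in Sham HFD and from 0 to 3.74 CPM (median 1.21) in lean mice (log2 fold change 1.59 ± 0.51 SE, edgeR adjusted p = 0.0244). Trem2 overlapped both RYGB groups and Gpnmb RYGB Chow. The call on Trem2 was lost without any 1 of 13 of the 20 mice, with adjusted p up to 0.173 without Sham HFD replicate 5, and that on Gpnmb without Sham HFD replicate 5 (adjusted p = 0.0572), without the Sham Chow group (0.215) or in DESeq2 (0.0712). Without Sham Chow replicate 2 the log2 fold change of Gpnmb was 2.25. Of 4 tested monocyte and neutrophil markers 1 was higher, of 5 T, NK and B cell markers 1, of 6 biliary markers 3 higher (1 without Sham HFD replicate 5) and 1 lower, and of 8 MHC class II genes, 5 red cell genes and 5 adipocyte genes 0 were called by edgeR in either direction. The 1 higher T, NK and B cell marker had reached the filter through the Sham HFD mice alone. Another 5 adipocyte markers stayed under the filter, at 2.38 CPM or less in every mouse, and without the filter 4 of them were higher in Sham HFD. Whether a change in the number of any of these cells took part in the collagen result was not tested.

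Of 14 hepatocyte markers 0 were higher and 10 lower in Sham HFD, with a sum of 95476 to 107819 CPM in Sham HFD and 99518 to 153267 CPM in lean mice. Over all tested genes 13.5% were higher and 13.7% lower. The fall was slight in albumin (Alb, log2 fold change -0.38 ± 0.11 SE, edgeR adjusted p = 0.0127) and greater in Cps1, the entry enzyme of the urea cycle (log2 fold change -0.90 ± 0.17 SE, edgeR adjusted p = 5.06e-04), which lay below every lean mouse. These markers moved with the complement and male-biased genes, and their part in those results was not tested.

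**Figure D4:**
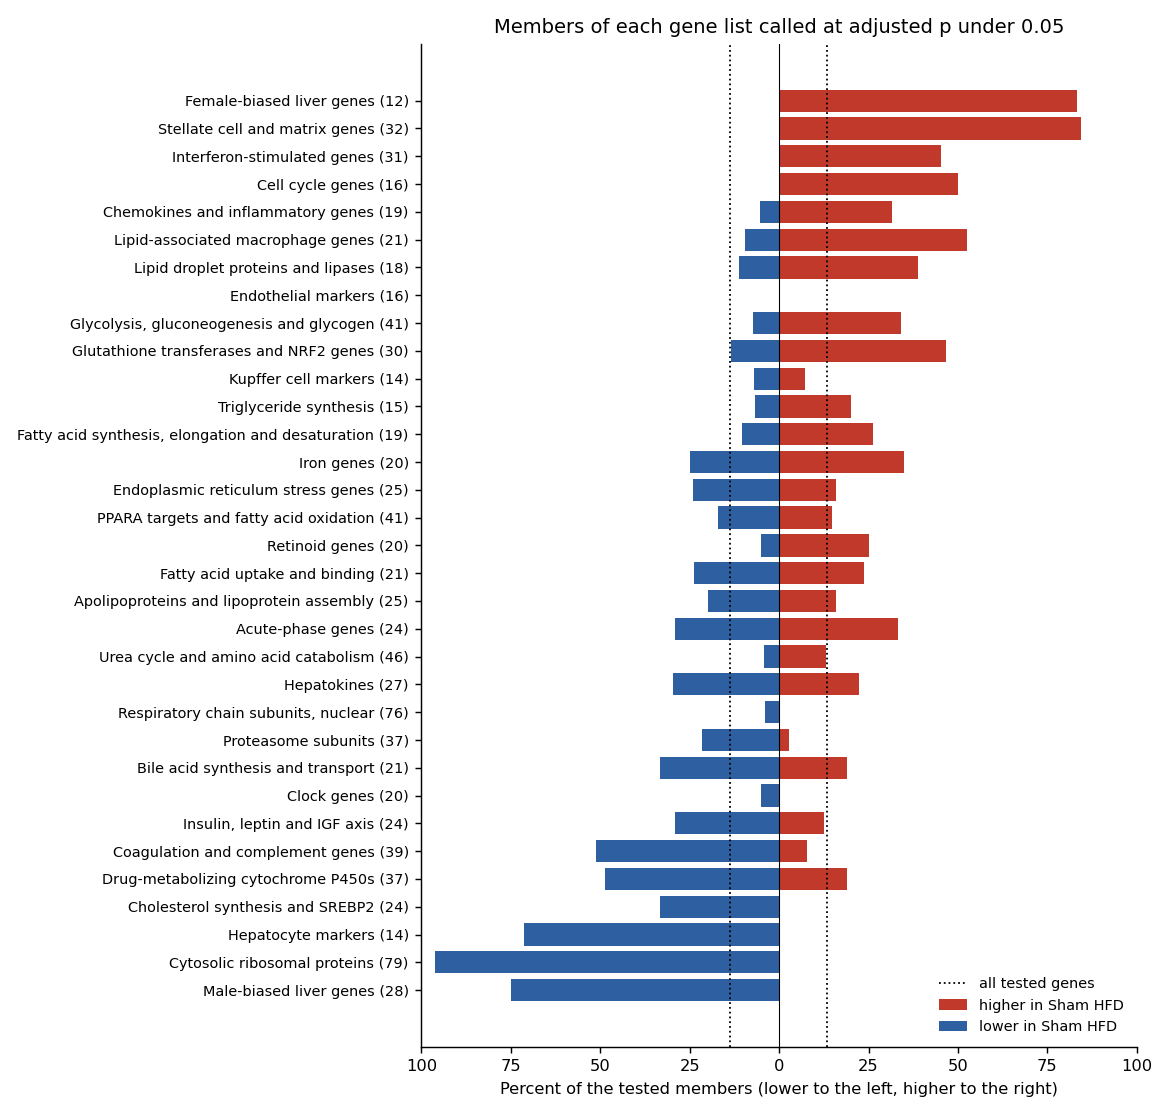
Share of the tested members of each gene list (number tested in brackets) called higher (red, to the right) or lower (blue, to the left) in Sham HFD at an adjusted p under 0.05, ordered by median log2 fold change; lists with at least 10 tested members are drawn. Dotted lines mark the share of all tested genes, 13.5% higher and 13.7% lower: 27 of 32 matrix genes and 76 of 79 ribosomal protein genes stand far outside them, and respiratory chain genes (0 higher, 3 lower of 76) inside. The female-biased and lipid-associated macrophage lists each include 3 genes that reached the filter through Sham HFD mice alone.

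Ribosomal protein genes were lower by a small amount, and least against RYGB HFD. Of 79 genes of the cytosolic ribosome 0 were higher and 76 lower, 33 lay below all lean mice, and the median log2 fold change was -0.53. Among all tested genes 13.5% were higher, 13.7% lower and 2.31% below all lean mice. The summed level of all 81 listed genes, those under the filter included, was 8018 to 9371 CPM in Sham HFD and 10981 to 14897 CPM in Sham Chow. It was 12023 to 14489.7 CPM in RYGB Chow and 9733 to 12505 CPM in RYGB HFD. Against Sham Chow 77 of the 79 genes were lower (median -0.67), against RYGB Chow 71 (median -0.58) and against RYGB HFD 45 (median -0.36). Rpl4, a protein of the large subunit, measured 345, 358, 348, 344 and 344 CPM in Sham HFD and from 433 to 557 CPM (median 484) in lean mice (log2 fold change -0.51 ± 0.06 SE, edgeR adjusted p = 3.67e-06). Rplp0, the stalk protein of the large subunit, measured 279, 323, 318, 318 and 320.1 CPM in Sham HFD and from 379 to 486 CPM (median 430.4) in lean mice (log2 fold change -0.49 ± 0.06 SE, edgeR adjusted p = 3.76e-06). All 5 Sham HFD mice were below all lean mice for both genes, and RYGB HFD held the lowest lean mouse. With library sizes alone in place of TMM factors 68 of the 79 genes were lower and 0 higher. Of 76 nuclear genes of the respiratory chain 0 were higher and 3 lower (1 without Sham HFD replicate 1 and 7 without RYGB Chow replicate 3), and of 37 proteasome subunits 1 was higher and 8 lower (5 without any 1 of Sham HFD replicates 1 to 4).

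Complement and coagulation proteins, which the liver releases into plasma, were mostly lower. Of 39 genes 3 were higher and 20 lower, 1 lay above and 7 below all lean mice, and the median log2 fold change was -0.26. Over all tested genes the shares were 13.5% higher, 13.7% lower, 2.36% above and 2.31% below. C8a and C8b encode 2 chains of the C8 component of the membrane attack complex and lie 11130 bases apart on chromosome 4. C8b (ENSMUSG00000029656, chromosome 4 from 104766317 to 104804548) measured 100.4, 77.0, 61.7, 70.0 and 59.4 CPM in Sham HFD and from 217 to 377 CPM (median 312) in lean mice (log2 fold change -2.0 ± 0.14 SE, edgeR adjusted p = 1.05e-08), and the 3 lean groups overlapped each other. C8a (ENSMUSG00000035031, chromosome 4 from 104815679 to 104876398) measured 438, 357, 305, 306 and 249 CPM in Sham HFD, 693, 670.1, 794, 610.3 and 702 CPM in Sham Chow, 694, 822, 710.0, 907 and 723 CPM in RYGB Chow and 1000.1, 1045, 1169, 1027 and 1020.3 CPM in RYGB HFD (log2 fold change -1.32 ± 0.10 SE, edgeR adjusted p = 4.37e-08). RYGB HFD was the highest lean group, and the lean groups differed (adjusted p = 0.00756).

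C6, another part of that complex, fell by 1.70 without overlap, while C8g, the remaining C8 chain, did not pass (log2 fold change -0.01 ± 0.07 SE, edgeR adjusted p = 0.928). C3, the central complement protein, measured 4572, 5022, 4661, 5002 and 4419 CPM in Sham HFD and from 5818 to 11031 CPM (median 7497) in lean mice (log2 fold change -0.70 ± 0.09 SE, edgeR adjusted p = 1.18e-05), with 9648 ± 1154 CPM (mean ± SD over n = 5 mice) in RYGB HFD, 7129 ± 1072 in RYGB Chow and 6578 ± 735 in Sham Chow. The fibrinogen chains Fga (-0.42), Fgb (-0.50) and Fgg (-0.44) fell with overlap. Against RYGB HFD alone 26 of the 39 genes were lower, against Sham Chow 16 and against RYGB Chow 13.

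Receptors and secreted regulators of growth and insulin action were among the genes below the lean mice. Egfr, the epidermal growth factor receptor of hepatocytes (ENSMUSG00000020122, chromosome 11 from 16752203 to 16918158), measured 98.0, 126, 99.1, 55.8 and 41.0 CPM in Sham HFD and from 318 to 829.6 CPM (median 580.2) in lean mice, a log2 fold change of -2.78 ± 0.32 (SE, edgeR adjusted p = 3.76e-06). Igfbp2, an insulin-like growth factor binding protein that leptin raises (ENSMUSG00000039323, chromosome 1 from 72824503 to 72852474), measured 196, 151, 151, 205 and 129 CPM in Sham HFD and from 359 to 1653 CPM (median 787) in lean mice, a log2 fold change of -2.37 ± 0.22 (SE, edgeR adjusted p = 2.22e-07). The lean groups were ordered for Igfbp2, at 604 ± 159 CPM (mean ± SD over n = 5 mice) in Sham Chow, 934 ± 261 in RYGB Chow and 1139 ± 368 in RYGB HFD (adjusted p = 0.0457 among lean groups), with neighbouring groups overlapping. Fetub, fetuin B, a plasma protease inhibitor, measured 251, 243, 229, 272 and 253 CPM in Sham HFD and from 416 to 612 CPM (median 497) in lean mice (log2 fold change -0.99 ± 0.08 SE, edgeR adjusted p = 4.41e-08), with little spread in any group. Inhba, which encodes the activin A chain, fell by 1.46 without overlap, and Fstl1 and Selenop, a follistatin-like protein and the selenium carrier of plasma, rose by 0.97 and 0.34 without overlap. In the list of 24 insulin, leptin and IGF axis genes 3 were higher and 7 lower, and in that of 27 hepatokines 6 were higher and 8 lower. Of all tested genes 13.5% were higher and 13.7% lower.

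Enzymes of glucose and glycogen metabolism were more often higher than lower. Of 41 genes 14 were higher and 3 lower, and 7 lay above all lean mice, with a median log2 fold change of 0.24. The shares over all tested genes were 13.5% higher, 13.7% lower and 2.36% above. Gbe1, the glycogen branching enzyme, measured 223, 214, 230.4, 221 and 233 CPM in Sham HFD and from 110.1 to 177 CPM (median 142) in lean mice (log2 fold change 0.64 ± 0.08 SE, edgeR adjusted p = 9.27e-06). Pcx, pyruvate carboxylase, measured 811, 903, 884, 825 and 824 CPM in Sham HFD and from 493 to 736 CPM (median 583) in lean mice (log2 fold change 0.51 ± 0.06 SE, edgeR adjusted p = 2.18e-06). Fbp1, fructose bisphosphatase, measured 1269, 1317, 1433, 1259 and 1269 CPM in Sham HFD and from 802 to 1129 CPM (median 963) in lean mice (log2 fold change 0.45 ± 0.05 SE, edgeR adjusted p = 5.09e-06). These 3 genes had even values in the Sham HFD mice and gaps to the lean mice that were small beside those of the sex-biased genes.

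Pck1, which catalyses the step of gluconeogenesis after pyruvate carboxylase, went the other way (log2 fold change -0.97 ± 0.26 SE, edgeR adjusted p = 0.00902). It measured 1168, 771, 1192, 832 and 786 CPM in Sham HFD and from 786 to 3776 CPM (median 1849.8) in lean mice, with overlap, and its log2 fold changes were -1.11 against Sham Chow, -1.32 against RYGB Chow and -0.48 against RYGB HFD, the last not passing (adjusted p = 0.301). G6pc, the glucose-6-phosphatase, did not pass (log2 fold change -0.30 ± 0.21 SE, edgeR adjusted p = 0.307). Khk, which phosphorylates fructose, and Hk2, a hexokinase of muscle and growing cells, rose by 0.59 and 2.08 without overlap.

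Leading genes outside these lists had less familiar roles in liver. A4gnt, which caps mucin sugars in the stomach, measured 2.15, 2.96, 3.59, 1.74 and 1.67 CPM in Sham HFD and from 0 to 0.218 CPM (median 0.0489) in lean mice (log2 fold change 5.35 ± 0.42 SE, edgeR adjusted p = 4.37e-08). Sema5b, a guidance cue of the semaphorin family, measured 29.3, 29.4, 26.2, 22.8 and 22.7 CPM in Sham HFD and from 2.25 to 9.28 CPM (median 4.41) in lean mice (log2 fold change 2.48 ± 0.18 SE, edgeR adjusted p = 1.35e-08). A4gnt reached the filter on low values through the Sham HFD mice alone, and both genes were low in every lean group. Ly6d, a membrane protein of lymphoid precursors and epithelia, rose by 2.98, Wfdc2, a secreted epithelial protein, by 2.72, and Krt23, an epithelial keratin, by 2.42, all without overlap. Below the lean mice, Adgrf1, an adhesion G protein-coupled receptor, measured 1.04, 0.139, 0.845, 0.359 and 0.132 CPM in Sham HFD and from 2.45 to 15.9 CPM (median 8.24) in lean mice (log2 fold change -4.08 ± 0.48 SE, edgeR adjusted p = 4.06e-06), and Slco2a1, the prostaglandin transporter, measured 43.4, 41.0, 40.3, 42.2 and 41.8 CPM in Sham HFD and from 78.0 to 136 CPM (median 103) in lean mice (log2 fold change -1.33 ± 0.08 SE, edgeR adjusted p = 6.91e-10).

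Several lists lay near the share of all tested genes or depended on which lean group was used. Of 41 PPARA targets and genes of fatty acid oxidation 6 were higher and 7 lower, with 11 higher without Sham Chow replicate 2, and of 20 clock genes 0 were higher and 1 lower. Of 24 genes of cholesterol synthesis 0 were higher and 8 lower, a count of 4 or 5 without any 1 of Sham HFD replicates 1 to 4, with 12 lower against RYGB HFD, 5 against Sham Chow and 1 against RYGB Chow. Of 30 glutathione transferases and NRF2 genes 14 were higher and 4 lower (7 lower without RYGB Chow replicate 3), with 19 higher against RYGB HFD, 5 against Sham Chow and 6 against RYGB Chow, and Nfe2l2, which encodes NRF2, and Srxn1, one of its targets, rose by 0.44 and 0.63 without overlap. Of 31 interferon-stimulated genes 14 were higher and 0 lower, with 13 higher against Sham Chow, 5 against RYGB Chow and 7 against RYGB HFD. Without single mice that count of 14 became 10 to 21. The antiviral enzyme Rsad2 was the 1 member without overlap and rose by 1.20. Of 16 cell cycle genes 8 were higher and 0 lower, a count that fell to between 2 and 5 without any 1 of 10 mice, the 5 Sham HFD mice among them. Of 24 acute-phase genes 8 were higher and 7 lower, with 10 higher and 5 lower against Sham Chow and 2 higher and 10 lower against RYGB HFD.

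Hamp, the iron hormone hepcidin, was called higher than a lean mean that joined unlike groups. It measured 403, 437, 298, 231 and 265 CPM in Sham HFD, 721, 736, 1102, 625 and 964 CPM in Sham Chow, 3.05, 4.90, 447, 1.08 and 10.8 CPM in RYGB Chow and 0.163, 0.521, 0.115, 0.0591 and 0.0665 CPM in RYGB HFD. The Sham HFD mice lay below all Sham Chow mice and above all RYGB HFD mice, and the log2 fold change of 3.71 ± 0.84 (SE, edgeR adjusted p = 0.00263) fell to 0.23 (adjusted p = 0.854) when RYGB HFD was left out of the lean mean, and was 5.13 without RYGB Chow replicate 3.

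**Figure D5:**
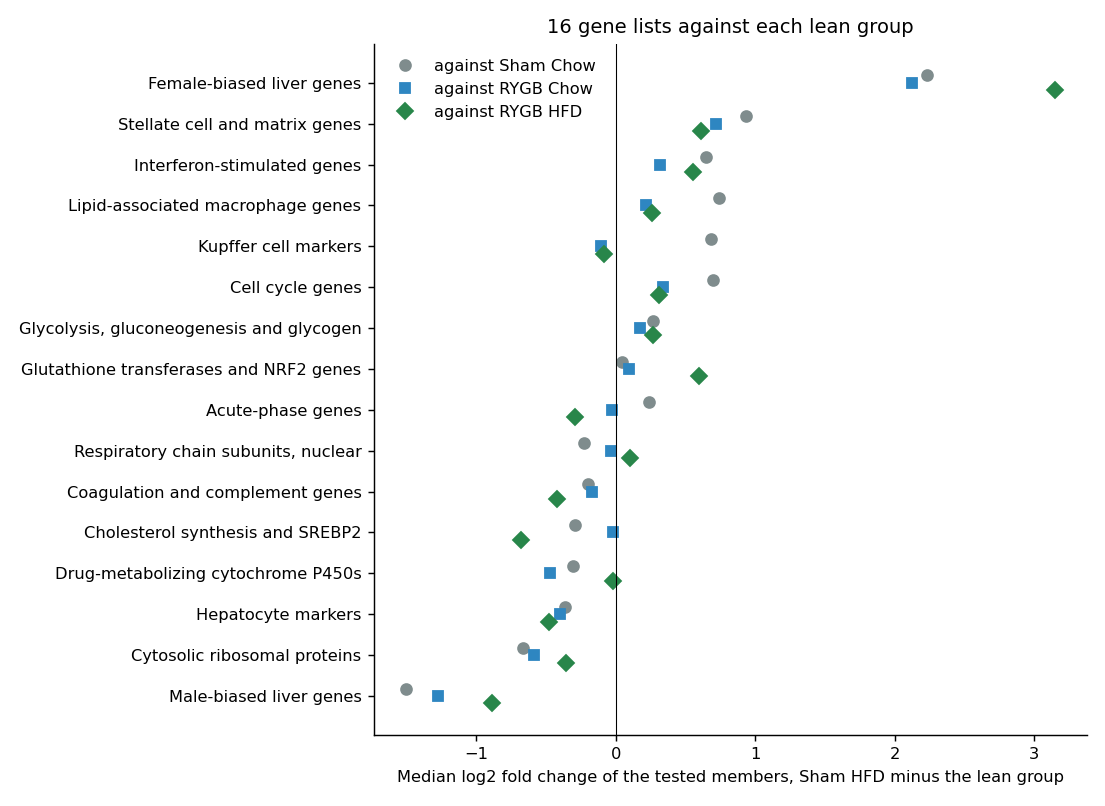
Median log2 fold change of the tested members of 16 gene lists in Sham HFD against each lean group (grey circles, Sham Chow; blue squares, RYGB Chow; green diamonds, RYGB HFD). The 3 comparisons share the Sham HFD mice. The female-biased and lipid-associated macrophage lists each include 3 genes that reached the filter through those mice alone. Female-biased, matrix, ribosomal, hepatocyte and male-biased lists lie on one side of 0 in all 3, whereas Kupffer cell markers (0.68, -0.11 and -0.09) and acute-phase genes (0.24, -0.03 and -0.29) do not.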

How the data were processed

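Liver RNA of 20 male mice was read from poly(A) libraries, 1 per mouse. The authors trimmed reads with Trimmomatic v0.36, aligned them to mm10 (GRCm38) with HISAT2 v2.1.0 and deposited raw counts per Ensembl gene (54532 rows) from featureCounts v1.5.0-p3. The strand setting, annotation release and treatment of multi-mapping reads are not given in the sources used here. Symbols and positions are those of GENCODE M21, which named 54495 of the genes. Totals ran from 14604854 to 22537498 counts per mouse (median 19056997), so precision is lowest for genes of a few CPM; floors cover counting error only.

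Tests ran on the 12289 genes that reached a CPM of 2 in 3 or more mice. TMM-normalized counts entered a single edgeR model (version 4.0.16, R 4.3.3; quasi-likelihood, two-sided) with 4 groups, and p-values were adjusted over all these genes by the method of Benjamini and Hochberg, with a threshold of 0.05. The contrast was Sham HFD minus the equal-weight mean of the 3 lean groups, and each lean group was also set against Sham HFD by itself. Overlap was read from TMM-scaled CPM. Gene lists were described by counts and medians, with no set test. The procedure was tested on simulated counts with 200 changed genes. Labels name no batch, and p-values measure the spread between these mice.

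The genes, lists and contrast were chosen with earlier results of these data known. Named genes are the 15 on each side with the widest gap, up to 4 members of each list on each side without overlap, 30 genes of lipid, bile acid, sex-biased, macrophage and hormone function whether or not they passed, the 10 on each side with the smallest p, and the 2 on each side of the edge of the rule; a part of them is given here. Other list members, the STAT5 motif and the p53 targets were chosen after their values were seen. Promoter windows came from RefSeq (GRCm38.p6), and for genes matched by symbol only the first listed window of each symbol was searched. Alternatives were RLE factors, library size only, DESeq2 1.42.0, limma-voom (limma 3.58.1), no filter, a CPM of at least 5, a replicate block, each lean group left out, a call against each of the 3 lean groups, a test against a fold of 1.5, and each mouse left out. For the lists, RLE factors, each mouse or lean group left out, counts of members that reached the filter in lean mice, and the P450s outside the sex-biased lists were added after seeing the data.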

Additional observations from a re-analysis of the deposited data

Results flagged for a closer look

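Within a group of 5 mice, 1 mouse stood apart from the other 4 by Dixon's test at the 95% level in 25 of 188 groups looked at, over the 47 genes whose values are given by group. Chance flags about 1 in 20 groups. Sham HFD replicate 1 stood apart for Hsd3b5 (4.87 CPM, others 0.0438 to 0.507), Serpina1e (517 CPM, others 91.2 to 133), Slco1a1 (234 CPM, others 10.4 to 49.4) and Rplp0 (279 CPM, others 318 to 323) on the low side, which puts it nearest to the lean mice for the first 3, male-biased genes, and farthest from them for Rplp0. Sham HFD replicate 3 stood apart for Thbs1 (3.17 CPM, others 2.22 to 2.46) and replicate 5 for Gpnmb (3.38 CPM, others 2.84 to 2.96). Sham Chow replicate 2 stood apart for Cidec (64.0 CPM, others 6.23 to 17.6), Cidea (11 CPM, others 0.29 to 2.91), Gpnmb (1.55 CPM, others 0.0463 to 0.193) and Eda2r (1.60 CPM, others 0.928 to 1.11), and Sham Chow replicate 1 for Pcx (493 CPM, others 565 to 587) on the low side. RYGB Chow replicate 3 stood apart for Apoa4 (225 CPM, others 28.4 to 75.1) and Hamp (447 CPM, others 1.08 to 10.8), replicate 1 for Cyp2b13 (0.163 CPM, others 0 to 0) and Cidea (7.46 CPM, others 0 to 1.17), and replicate 4 for Anxa2 (11.8 CPM, others 8.24 to 9.10) and Ccng1 (45.3 CPM, others 34.7 to 37.0). RYGB HFD replicate 3 stood apart for Cyp2b9 (4.32 CPM, others 7.93 to 8.69) on the low side, Cidec (26.0 CPM, others 4.20 to 10.1) and C8a (1169 CPM, others 1000.1 to 1045), and replicate 2 for Mup19 (413 CPM, others 12.8 to 43.2) and Hamp (0.521 CPM, others 0.0591 to 0.163). The remaining values were A4gnt in RYGB HFD replicate 1 (0.218 CPM), Pck1 in RYGB HFD replicate 5 (2565 CPM) and Cyp2b10 in RYGB HFD replicate 4 (0.0591 CPM, with the other 4 mice at 0). The part of these mice in the results was tested by leaving each out in turn.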

How the results depend on the processing

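Counts of all genes higher and lower than the lean mean stayed within 1.5 times under RLE factors, DESeq2, limma-voom, either filter and each lean group left out. They were 158 and 97 in a test against a fold of 1.5, 441 and 515 when each of the 3 lean groups had to pass, and 2634 and 794 with library sizes alone, where 76.8% of calls were higher against 49.5% with TMM factors and the median log2 fold change of all tested genes was 0.095. Genes with all Sham HFD mice above and below the lean mice numbered 511 and 117 with library sizes alone, 506 and 539 without RYGB HFD, and 441 above without Sham Chow, where fewer mice had to be cleared. Without each mouse in turn there were 1292 to 1764 higher and 1276 to 1749 lower genes, and 295 to 398 above and 289 to 386 below. Replicate numbers were not taken as pairs: same-numbered mice deviated together by correlations of -0.257 to 0.165, and 3 of 20 mice had their best partner in their own number. A replicate block gave 1571 higher and 1604 lower genes, and with it the calls on Scd1 (adjusted p = 0.051) and Trem2 (adjusted p = 0.0658) were lost.

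Genes with no call changed sign. Fasn was at 0.0545 with library sizes alone, 0.21 without RYGB HFD and from -0.265 to 0.0581 without single mice. Cyp7a1 was at 0.0137 with library sizes alone, 0.021 in limma-voom, 0.21 without RYGB HFD and from -0.377 to 0.039 without single mice. Fgf21 was at 0.14 in limma-voom and from -0.72 to 0.111 without single mice, Cpt1a at -0.0092 without RYGB Chow and from -0.0014 to 0.0642 without single mice, Fabp4 at -0.0828 and Clec4f at -0.175 without Sham Chow, and Cyp2b10 at -1.32 without RYGB HFD. Called genes among those named kept their direction, but limma-voom moved Hsd3b5 to -8.64, Slco1a1 to -3.81, Mogat1 to 4.40, Cidea to 4.49, Gpnmb to 2.37 and Hamp to 4.87, and Hamp was at 6.24 without Sham Chow. The cause was not tested. Depth limits what can be said of genes of a few CPM, such as A4gnt and Trem2.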

Other observations

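Genes known as targets of p53, the transcription factor that answers DNA damage and other stress, were mostly higher in Sham HFD. Of 28 such genes listed after the first of them had been seen, 25 were tested, 17 were higher and 0 lower, 5 lay above all 15 lean mice, and the median log2 fold change was 0.57. Of the 22 that reached the filter on low values in the lean mice, 14 were higher and 0 lower. Among all tested genes 13.5% were higher, 13.7% lower and 2.36% above all lean mice. Because the list was written with these values known, its count supports nothing by itself. It ranged from 15 to 18 higher genes over the alternatives other than the test against a fold of 1.5.

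Ccng1, cyclin G1, measured 82.3, 78.7, 82.2, 76.3 and 77.2 CPM in Sham HFD replicates 1 to 5 and from 34.7 to 48.3 CPM (median 43.4) in lean mice (log2 fold change 0.92 ± 0.06 SE, edgeR adjusted p = 8.85e-10). Eda2r, a receptor of the TNF receptor family, measured 6.78, 6.52, 5.79, 4.31 and 4.17 CPM in Sham HFD and from 0.49 to 2.13 CPM (median 1.01) in lean mice (log2 fold change 2.37 ± 0.20 SE, edgeR adjusted p = 7.32e-08). Phlda3, a p53-induced inhibitor of AKT, measured 3.59, 3.10, 3.21, 4.43 and 3.11 CPM in Sham HFD and from 0.237 to 1.93 CPM (median 0.922) in lean mice (log2 fold change 1.90 ± 0.28 SE, edgeR adjusted p = 5.38e-05). In each of these 3 genes the lowest Sham HFD mouse was above the highest lean mouse, and the 3 lean groups overlapped each other. Eda2r and Phlda3 reached the filter on low values through the Sham HFD mice alone.
The medians of the p53 target list were 0.50 against Sham Chow, 0.52 against RYGB Chow and 0.57 against RYGB HFD. Mdm2, the ubiquitin ligase that limits p53 and is itself a target, did not pass (log2 fold change 0.10 ± 0.07 SE, edgeR adjusted p = 0.34).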
